A study of Homo sapiens with 11 samples.

Results

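Complement components and regulators are described here across liver tumours of a human pancreatic carcinoma line with and without knockdown of NPTX1, the gene of the secreted neuronal pentraxin 1. The genes were selected by symbol: the proteases C1R, C1S and CFB, the central component C3, the soluble regulators SERPING1 and CFI, and the membrane regulators CD46, CD55 and CD59. All 9 symbols had a row among the 23327 uniquely named genes of the authors' deposited table, and all 9 had an adjusted p. The genes were chosen with the results of this same comparison in view, so their calls are given as a description. The tumours grew from PANC1 LM3 cells, a liver-metastatic derivative, of generation 3, of the established pancreatic ductal carcinoma line PANC1. The groups differed in the short hairpin RNA that the cells expressed: shNPTX1_3 (3 libraries) and shNPTX1_4 (4 libraries), both directed at NPTX1 and labelled as knockdown, and shCTRL (4 libraries), a control hairpin labelled as wild type. All groups received 500000 cells by injection into the spleen on day 1, with tumours of the liver collected for RNA on day 21. The host's strain and age, whether the lines were clonal, and whether each library came from its own animal were not stated in the labels. The p-values therefore measure the spread of these libraries alone, and some of that spread may be technical.

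Complement is a cascade of plasma proteins that marks surfaces for uptake and pierces membranes. The classical route starts with the proteases C1r and C1s, the alternative route is amplified by factor B, and all routes meet at C3. Cells carry brakes on their own surface: CD46 is a cofactor for cleavage of deposited C3b and C4b by factor I, CD55 speeds the decay of the convertases, and CD59 blocks assembly of the membrane attack complex. Most plasma complement is made by hepatocytes, while tumour and stromal cells also transcribe many of the genes, and carcinoma cells are known for carrying the membrane regulators.

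The authors' deposited table holds a mean normalized count per group, made by the authors, with 1 contrast of 7 knockdown libraries to 4 controls, tested with DESeq2 and called at an adjusted p under 0.05. Single libraries were not analysed here, and a group mean therefore stands without an SD. The error of a change is the SE of its log2 fold change, and a 95% interval is computed from it. Library depth was estimated from the value that 1 read adds to a group mean, and ranged over 10800000 to 24000000 reads on genes in shNPTX1_3, 16600000 to 26100000 in shNPTX1_4 and 13000000 to 41200000 in shCTRL. NPTX1 itself averaged 46.5 normalized counts in shNPTX1_3, 38.4 in shNPTX1_4 and 103 in shCTRL in the authors' deposited table, and fell by 1.26 on the log2 scale (SE 0.24, adjusted p = 3.65e-06, DESeq2). Of 7 genes read as markers of the labelled carcinoma cells, all tested, 4 were called higher and 1 lower in the authors' deposited table. That is 71.4%, beside 27.3% of all tested genes. These calls compare the groups and are no check of the cell type. VIM (68672, 68305 and 60617 normalized counts in shNPTX1_3, shNPTX1_4 and shCTRL) and EPCAM (438, 548 and 462) were not called by DESeq2 in the authors' deposited table. In the authors' deposited table the keratin genes KRT18, KRT8, KRT7 and KRT19 were called higher, at 2.16-fold, 2.54-fold, 3.36-fold and 4.92-fold, and CDH2, the gene of N-cadherin, fell by 0.84 on the log2 scale by DESeq2 (adjusted p = 2.72e-09).

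The 3 membrane regulators rose in the knockdown tumours, SERPING1 fell, and the remaining 5 genes were not called. Of the 9 genes, 3 were called higher and 1 lower in the authors' deposited table, where 27.3% of 18426 tested genes were called, 15.8% higher and 11.5% lower. Of all calls 57.9% were higher, and 41.4% under scaling of all groups to an equal total, which shifts each log2 fold change by 0.0661. Since this comparison was in view when the genes were chosen, nothing is read from the count. The median log2 fold change of the 9 genes was -0.11 in the authors' deposited table, beside -0.01 for all tested genes. These are bulk tumour libraries, in which fewer cells of a type and less RNA per cell cannot be told apart.

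CD59, the inhibitor of the membrane attack complex, was the most abundant of the 9 genes. Its authors' means were 17811 normalized counts in shNPTX1_3 and 14094 in shNPTX1_4, against 9748 in shCTRL, in the authors' deposited table. Its log2 fold change was 0.69 in the authors' deposited table, with an SE of 0.14 and an adjusted p of 1.71e-05 (DESeq2), a 1.61-fold increase. Both hairpin groups lay above the control group, shNPTX1_3 at 1.83 times and shNPTX1_4 at 1.45 times the control mean of the authors' deposited table. Exons of CD59 overlap those of AL049629.2 on the same strand in GENCODE 29, and reads in the shared part are uncertain.

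CD55, the decay-accelerating factor, averaged 399.6 normalized counts in shNPTX1_3 and 432 in shNPTX1_4, against 238 in shCTRL, in the authors' deposited table. It rose 1.77-fold, at 0.82 on the log2 scale with an SE of 0.15 and an adjusted p of 1.17e-06 (DESeq2) in the authors' deposited table. The hairpin groups were close to each other here, at 1.68 and 1.82 times the control mean of the authors' deposited table. CD46, the membrane cofactor protein, averaged 4198 normalized counts in shNPTX1_3 and 3648 in shNPTX1_4, against 2949 in shCTRL, in the authors' deposited table. Its increase was the smallest of the 3, at 1.32-fold, with a log2 fold change of 0.40, an SE of 0.08 and an adjusted p of 3.27e-05 (DESeq2) in the authors' deposited table. The 95% intervals of the log2 fold changes ran from 0.23 to 0.56 for CD46, from 0.53 to 1.11 for CD55 and from 0.41 to 0.96 for CD59 in the authors' deposited table. Summed over the 3 genes, the authors' means reached 22409 normalized counts in shNPTX1_3 and 18174 in shNPTX1_4, against 12935 in shCTRL, and CD59 made up most of each sum.

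**Figure D1:**
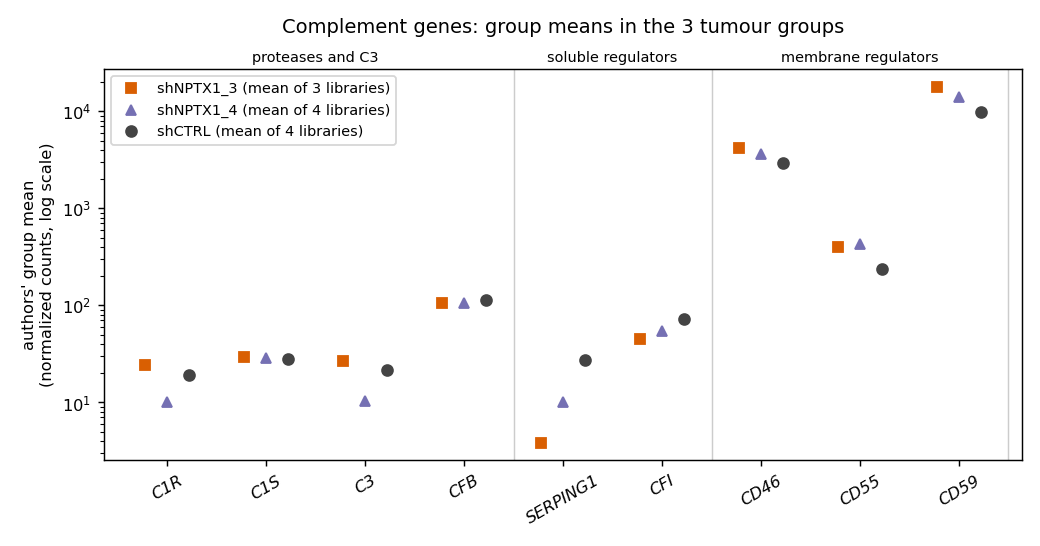
Authors' group means (normalized counts, log axis) of the 9 complement genes, ordered by role, with 1 point for each tumour group and no error bars because values of single libraries were not analysed. CD46, CD55 and CD59 lie above control in both hairpin groups (CD59 at 17811 and 14094, against 9748), and SERPING1 lies below it in both (3.85 and 10.1, against 27.5).

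The start regions of the membrane regulators that rose together are shown with that of CFB, whose level was close to control in both hairpin groups. The windows are 300 bases long, 250 before and 50 after a transcript start, from the RefSeq promoter table of build GRCh38.p14; 6 of the 9 genes matched it by symbol, CD46, CD55, CD59, CFB, CFI and C1R. The starts are the earliest listed for each gene, CD46 having 2 in the table, CD59 having 4, and CD55 and CFB having 1. CD46 is at chr1:207751788-207752087 on the plus strand, CD55 at chr1:207321428-207321727 on the plus strand, CD59 at chr11:33736430-33736729 on the minus strand and CFB at chr6:31945845-31946144 on the plus strand, each written 5′ to 3′. Capitals mark matches on either strand to any of 4 motifs: an NF-kB core, TTCNNNGAA (STAT), an interferon response element and TTGCNNAA (C/EBP core). The NF-kB core was read as GGG, then any 5 bases, then CC. The interferon response element was read as GAAA, then any 2 bases, then GAAA. Since the 5 inner bases of the NF-kB core are free, a stretch in capitals need not be an NF-kB site.
CD46: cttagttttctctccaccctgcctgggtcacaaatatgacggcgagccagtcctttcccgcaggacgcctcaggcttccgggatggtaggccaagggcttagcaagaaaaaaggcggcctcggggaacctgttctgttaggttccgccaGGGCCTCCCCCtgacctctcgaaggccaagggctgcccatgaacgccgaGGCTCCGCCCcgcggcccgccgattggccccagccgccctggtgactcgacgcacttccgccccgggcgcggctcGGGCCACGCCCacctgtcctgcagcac
CD55: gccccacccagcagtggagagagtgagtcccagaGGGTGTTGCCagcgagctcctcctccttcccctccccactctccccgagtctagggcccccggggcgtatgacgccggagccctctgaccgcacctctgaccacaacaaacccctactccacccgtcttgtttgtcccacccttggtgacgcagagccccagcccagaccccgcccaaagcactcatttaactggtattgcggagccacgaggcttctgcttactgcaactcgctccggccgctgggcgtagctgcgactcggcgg
CD59: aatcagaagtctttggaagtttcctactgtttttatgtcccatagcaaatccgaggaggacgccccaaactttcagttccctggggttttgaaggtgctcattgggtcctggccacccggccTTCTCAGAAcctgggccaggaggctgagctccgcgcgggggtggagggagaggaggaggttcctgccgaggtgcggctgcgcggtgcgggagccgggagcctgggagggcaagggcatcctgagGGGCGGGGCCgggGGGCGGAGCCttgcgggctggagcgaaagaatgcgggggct
CFB: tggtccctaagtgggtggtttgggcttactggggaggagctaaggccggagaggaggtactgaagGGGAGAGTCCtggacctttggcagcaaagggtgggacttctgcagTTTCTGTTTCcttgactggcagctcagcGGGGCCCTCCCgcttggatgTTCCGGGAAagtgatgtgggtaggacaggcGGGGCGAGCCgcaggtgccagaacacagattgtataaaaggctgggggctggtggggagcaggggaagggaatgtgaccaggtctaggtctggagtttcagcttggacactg

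CD46, CD55 and CD59 had G and C at 67%, 65% and 64.3% of the 300 bases, against 59% in CFB, 55.3% in C1R and 39.3% in CFI. The median of 27305 promoters, the earliest listed of each gene, was 58.3%. CpG dinucleotides numbered 25 in CD46, 19 in CD55 and 18 in CD59, against 10 in C1R, 7 in CFB and 2 in CFI. The median of the same promoters was 14, and 68.2%, 57% and 55.5% of them had fewer than CD46, CD55 and CD59. The NF-kB core was found in 5 of the 6 windows, all but that of CFI, and in 58% of the 27305 promoters. Within the 250 bases before the start it was found in 3 of the 6 (CD46, CD55 and CFB) and in 53.7% of all promoters. TTCNNNGAA was found in CFB, as TTCCGGGAA starting 92 bases before the start (position -92), and in CD59, as TTCTCAGAA at position -128, and in 7.88% of all promoters. The interferon response element was found in CFB alone of the 6, on the other strand as TTTCTGTTTC at position -140, and in 3.65% of all promoters. TTGCNNAA was found in C1R alone of the 6, and in 10.6% of all promoters. Some matches overlap: 2 pairs of NF-kB core matches in CD46 and 1 pair in CFB lie a single base apart. These are matches of letters in a window and no measure of binding.

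SERPING1, the C1 inhibitor that inactivates C1r, C1s and the mannose-binding lectin proteases, averaged 3.85 normalized counts in shNPTX1_3 and 10.1 in shNPTX1_4, against 27.5 in shCTRL, in the authors' deposited table. Both hairpin groups were below control, and it fell by 1.87 on the log2 scale (SE 0.42, adjusted p = 0.000146, DESeq2) in the authors' deposited table, or to 0.273-fold. By the size of the decrease it stood at position 66 from the bottom among the 18426 tested genes of the authors' deposited table. The gene was low in every group: its mean over all libraries was 0.764 CPM, CPM being normalized counts per 1000000 of the table's mean total, and 1 read in 1 library of shNPTX1_3 adds 0.278 to 0.616 to a group mean. The 95% interval of its log2 fold change was accordingly wide, from -2.71 to -1.04 in the authors' deposited table.

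CFI, the protease factor I that cleaves C3b and C4b once a cofactor such as CD46 is bound, averaged 44.8 normalized counts in shNPTX1_3 and 54.3 in shNPTX1_4, against 73.1 in shCTRL, in the authors' deposited table. Its log2 fold change was -0.55 in the authors' deposited table, with an SE of 0.22 and an adjusted p of 0.0504 (DESeq2), just outside the threshold. The call depended on the scaling and on the genes adjusted over. Under scaling of all groups to an equal total the adjusted p was 0.0259, with log2 fold changes centred on the median of genes at 2 CPM or more it was 0.0405, and adjusted over those genes alone it was 0.0424. CFI shares exons with AC126283.2 on the same strand in GENCODE 29.

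The activating components were not called. CFB, the protease subunit of the alternative convertase, averaged 106 normalized counts in shNPTX1_3 and 105 in shNPTX1_4, against 113 in shCTRL, in the authors' deposited table. The 95% interval of its log2 fold change ran from -0.40 to 0.19 in the authors' deposited table (adjusted p = 0.644, DESeq2). C1S, the C1 protease that cleaves C4 and C2, averaged 29.3 normalized counts in shNPTX1_3 and 28.5 in shNPTX1_4, against 28.3 in shCTRL, in the authors' deposited table, with an interval from -0.52 to 0.50 (adjusted p = 0.982, DESeq2). For these genes the group means of both hairpins stood between 0.924 and 1.04 times the control mean of the authors' deposited table.

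C1R and C3 lay on opposite sides of control in the hairpin groups. C1R, the protease that activates C1s, averaged 24.5 normalized counts in shNPTX1_3 and 10 in shNPTX1_4, against 19.1 in shCTRL, in the authors' deposited table (log2 fold change -0.34, SE 0.40, adjusted p = 0.554, DESeq2). C3 averaged 26.6 normalized counts in shNPTX1_3 and 10.4 in shNPTX1_4, against 21.7 in shCTRL, in the authors' deposited table (log2 fold change -0.30, SE 0.46, adjusted p = 0.671, DESeq2). In both genes shNPTX1_3 was above control and shNPTX1_4 below it, and the combined comparison averages over that gap. The difference between the hairpins was not tested. C1R, C1S, C3 and SERPING1 all averaged under 2 CPM, and the 95% interval of C3 ran from -1.21 to 0.61 in the authors' deposited table. C1R shares exons with C1RL, C1S with EMG1, and CFB with C2, each on the same strand in GENCODE 29.

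Per kilobase of transcript, the membrane regulators stood far above the secreted components in every group. CD59 had 2334 normalized counts per kilobase in shNPTX1_3, 1847 in shNPTX1_4 and 1277 in shCTRL, and in each group it lay above at least 94.8% of the 15634 tested genes with a length in GENCODE 29. CD46 had 1281, 1113 and 899.6 normalized counts per kilobase in shNPTX1_3, shNPTX1_4 and shCTRL. CD55 was lower, at 217, 234 and 129, the 63.6th, 66th and 52.6th percentile of the same 15634 genes in the same order of groups. CFB and CFI followed, with 37.0 and 21.8 normalized counts per kilobase in shNPTX1_3, 36.6 and 26.4 in shNPTX1_4, and 39.6 and 35.6 in shCTRL. C1S, C1R and C3 had between 1.97 and 10.4 normalized counts per kilobase in all groups. SERPING1 was above these 3 genes in shCTRL, at 12.3, and below all of them in shNPTX1_3, at 1.73. Which neighbours in this order differ beyond the spread of libraries was not analysed here. The length is that of the coding transcript with the longest reading frame, and a gene that uses shorter transcripts would have a higher level.

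**Figure D2:**
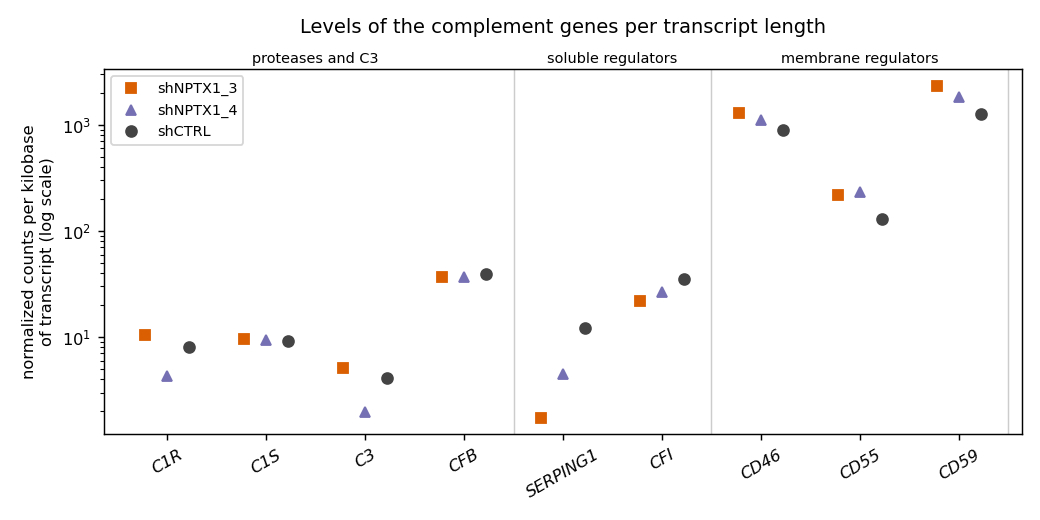
Authors' group means divided by transcript length (normalized counts per kilobase, log axis) for the 9 complement genes, with 1 point for each tumour group. CD59 and CD46 stand highest in every group (1277 and 899.6 in shCTRL), and SERPING1 drops to the lowest place in shNPTX1_3 (1.73).

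For each hairpin, the log2 ratio of its group mean to that of control was computed with a pseudocount of 1, with no test, and both ratios share the control libraries. Genes at 2 CPM or more had median log2 ratios of 0.0134 with shNPTX1_3 and 0.0183 with shNPTX1_4. CD59 had log2 ratios of 0.87 with shNPTX1_3 and 0.53 with shNPTX1_4, CD46 had 0.51 and 0.31, and CD55 had 0.75 and 0.86. SERPING1 had -2.56 with shNPTX1_3 and -1.36 with shNPTX1_4, and CFI had -0.69 and -0.42. The larger change was thus with shNPTX1_3 for CD59, CD46, SERPING1 and CFI, and with shNPTX1_4 for CD55. C1R had log2 ratios of 0.34 and -0.87 with shNPTX1_3 and shNPTX1_4, and C3 had 0.28 and -1.0, while those of C1S and CFB lay between -0.11 and 0.05.

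**Figure D3:**
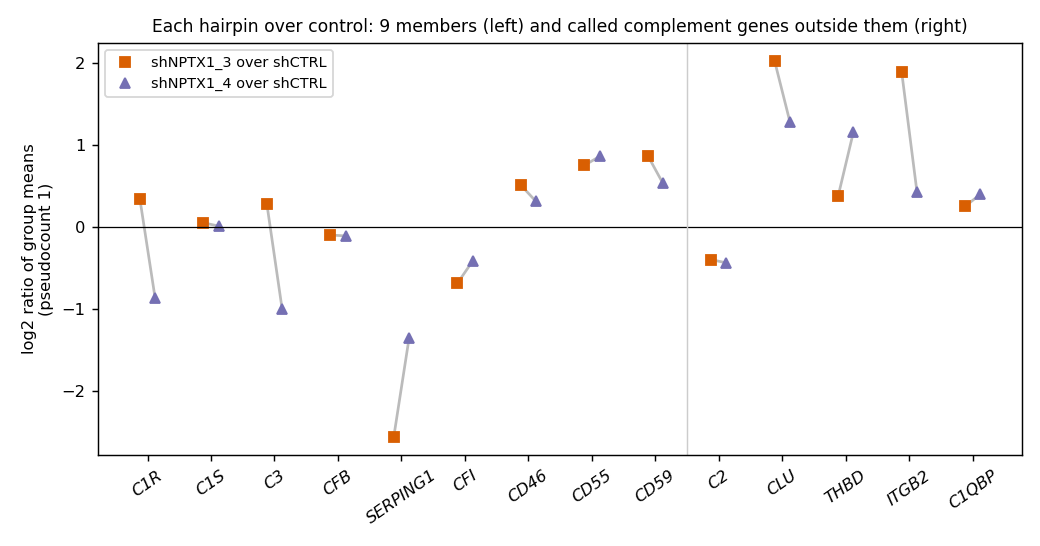
Log2 ratio of each hairpin's group mean to the control mean (pseudocount of 1), for the 9 complement genes on the left and the called complement genes outside them on the right; squares are shNPTX1_3 and triangles shNPTX1_4. The membrane regulators lie above 0 with both hairpins (CD59 at 0.87 and 0.53), SERPING1 lies below 0 with both (-2.56 and -1.36), and C1R and C3 change side.

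The rest of the complement system was read from a list of 51 further genes, of which 50 had a row and 32 an adjusted p. Of the tested genes, 4 were called higher and 1 lower, which is 15.6%, under the 27.3% of all tested genes, and 27 were not called. Their median log2 fold change was 0.06 in the authors' deposited table, beside -0.01 for all tested genes. These calls rest on the adjusted p of the authors' deposited table. Many of the tested genes were low, and 18 of the 32 averaged 2 CPM or more. Adjusted over genes at that level alone, 4 of the 18 were called higher and 1 lower, beside 2869 higher and 1974 lower of all 14127. Of the 50 genes with a row, 18 had no adjusted p. Among these, the C1q chain genes C1QA and C1QC and the macrophage receptor gene VSIG4 were at 0 in every library. C4B had no row, and since C4A and C4B are nearly identical, the authors' means of C4A, 11.2, 14.5 and 18.1 normalized counts in shNPTX1_3, shNPTX1_4 and shCTRL in the authors' deposited table, are uncertain.

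Among 17 further regulators, 11 were tested and 2 were called, both higher. CLU, the gene of clusterin, a chaperone that binds the terminal complex in plasma, averaged 6612 normalized counts in shNPTX1_3 and 3971 in shNPTX1_4, against 1634 in shCTRL, in the authors' deposited table. It rose 3.12-fold in the authors' deposited table (log2 fold change 1.64, SE 0.20, adjusted p = 3.51e-14, DESeq2). THBD, the gene of thrombomodulin, an endothelial anticoagulant receptor that also promotes inactivation of C3b, averaged 68.1 and 118 normalized counts in shNPTX1_3 and shNPTX1_4, against 52.2 in shCTRL, in the authors' deposited table. It rose 1.85-fold in the authors' deposited table (SE of log2 0.27, adjusted p = 0.00664, DESeq2), and its larger change was with shNPTX1_4.

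Of the further activating genes, 6 of the initiation routes and 7 of the alternative and terminal routes were tested, and C2 alone was called. C2, the protease subunit of the classical convertase, averaged 116 normalized counts in shNPTX1_3 and 113 in shNPTX1_4, against 154 in shCTRL, in the authors' deposited table, and fell by 0.45 on the log2 scale (SE 0.13, adjusted p = 0.00556, DESeq2). It shares exons with CFB and with a readthrough of the pair, AL645922.1. C5, the precursor of the attack complex, averaged 147 and 163 normalized counts in shNPTX1_3 and shNPTX1_4, against 132 in shCTRL, in the authors' deposited table (adjusted p = 0.225, DESeq2). Properdin (CFP), which steadies the alternative convertase, had 112 normalized counts in shNPTX1_3 and 141 in shNPTX1_4, against 173 in shCTRL, in the authors' deposited table (log2 fold change -0.42, adjusted p = 0.0623, DESeq2), and was called lower under scaling of all groups to an equal total (adjusted p = 0.0277) and with median centring (0.0477).

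Of 10 receptors of complement fragments, 8 were tested and 2 were called, both higher. ITGB2, the beta chain of the integrin receptors for cleaved C3b, averaged 236 normalized counts in shNPTX1_3 and 84.8 in shNPTX1_4, against 62.8 in shCTRL, in the authors' deposited table (log2 fold change 1.25, SE 0.44, adjusted p = 0.0223, DESeq2). Its alpha chain partners ITGAM and ITGAX were not called by DESeq2 (adjusted p of 0.389 and 0.866 in the authors' deposited table). ITGB2 shares exons with its antisense gene ITGB2-AS1. C1QBP, a mostly mitochondrial protein that binds C1q, averaged 2578 and 2869 normalized counts in shNPTX1_3 and shNPTX1_4, against 2174 in shCTRL, in the authors' deposited table (log2 fold change 0.34, adjusted p = 0.0273, DESeq2), a call lost under scaling of all groups to an equal total (adjusted p = 0.0837). The anaphylatoxin receptor gene C5AR1 was not called, averaging 52.0 and 62.9 normalized counts in shNPTX1_3 and shNPTX1_4, against 53.6 in shCTRL, in the authors' deposited table (adjusted p = 0.794, DESeq2).

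**Figure D4:**
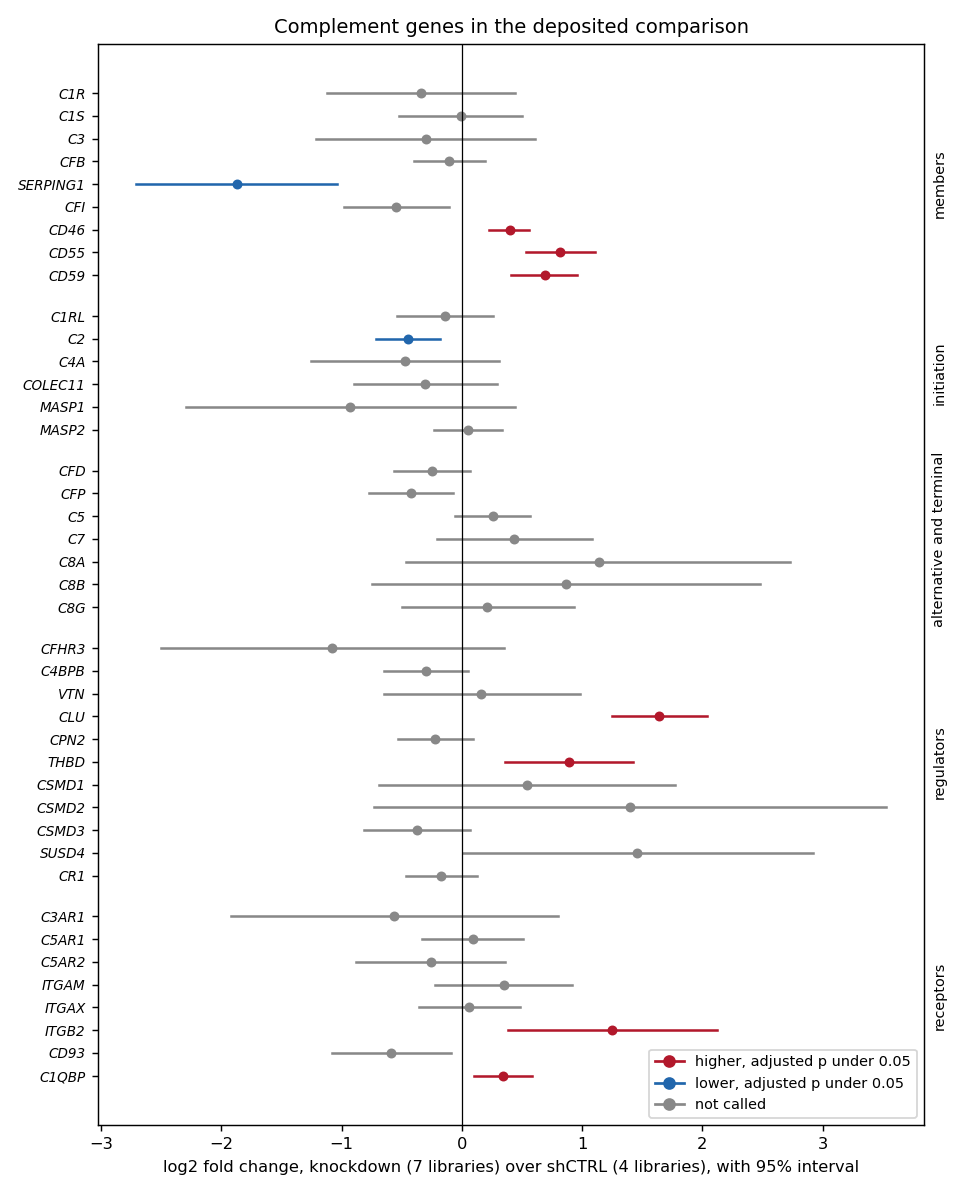
Log2 fold change, knockdown over shCTRL, with its 95% interval from the SE in the authors' deposited table, for the 9 complement genes and the 32 further complement genes with an adjusted p, grouped by role. Red marks genes called higher, blue genes called lower and grey genes not called; CLU stands farthest to the right (1.64) and SERPING1 farthest to the left (-1.87).

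CD46 and CD55 belong to the regulators of complement activation, a gene family on human chromosome 1. Of 11 genes of this family, 5 were tested, and CD46 and CD55 were called higher and 0 lower in the authors' deposited table, where 27.3% of all tested genes were called. Both were chosen with this comparison in view, and none of the other 3 was called by DESeq2. The others tested were CR1, averaging 117 and 109.7 normalized counts in shNPTX1_3 and shNPTX1_4 against 125 in shCTRL in the authors' deposited table, C4BPB, with 127 and 169 against 186 in the same groups, and CFHR3, with 5.53 and 1.46 against 6.50 in the same groups. Their DESeq2 adjusted p-values were 0.425, 0.207 and 0.271 in the authors' deposited table. CFHR3 has close relatives in sequence, so its reads are uncertain.

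A list of 24 genes covered signalling pathways known to raise complement transcription, and not each gene is itself an inducer. All were tested, 6 were called higher and 0 lower in the authors' deposited table, which is 25%, beside 27.3% of all tested genes. Their median log2 fold change was 0.08, beside -0.01. Among genes at 2 CPM or more, adjusted over those alone, 5 of 19 were called higher and 0 lower, beside 2869 higher and 1974 lower of all 14127. CEBPD, a transcription factor of the acute phase, averaged 504 normalized counts in shNPTX1_3 and 218 in shNPTX1_4, against 175 in shCTRL, in the authors' deposited table (log2 fold change 0.96, adjusted p = 0.0323, DESeq2). The cytokine gene IL6, which averaged 1.65 CPM, had 54.7 normalized counts in shNPTX1_3 and 26.2 in shNPTX1_4, against 20.2 in shCTRL, in the authors' deposited table (log2 fold change 0.95, adjusted p = 0.032, DESeq2). The receptor genes LIFR and IL6ST rose by 0.62 and 0.44 (log2) in the authors' deposited table, the interferon gamma receptor gene IFNGR2 by 0.36 and the kinase gene JAK1 by 0.29 (DESeq2 adjusted p of 0.000285, 0.0138, 0.0187 and 0.04). IFNGR2 and JAK1 lost their calls under scaling of all groups to an equal total (adjusted p = 0.0616 and 0.125), and JAK1 also with median centring (0.0616). The transcription factor genes STAT3, IRF1, RELA and NFKB1 were not called, with log2 fold changes between -0.07 and 0.09 in the authors' deposited table.

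Markers of the other cell types that a liver tumour can hold are given as measured, since hepatocytes, macrophages and fibroblasts also transcribe complement genes. The gene symbols are human, and the submitters' notes name a human and a mouse build without the handling of mouse reads. The levels are therefore no measure of the host's own cells, and their origin was not tested. Of 16 hepatocyte markers, 9 were tested and 2 (APOA1 and TF) were called higher in the authors' deposited table, and their summed authors' means were 575 normalized counts in shNPTX1_3, 294 in shNPTX1_4 and 369 in shCTRL. Albumin (ALB) was near 0, averaging 0.616, 0.284 and 0.784 normalized counts in shNPTX1_3, shNPTX1_4 and shCTRL in the authors' deposited table. Of 12 leukocyte and macrophage markers, 6 were tested and 0 were called by DESeq2 (0 at an unadjusted p under 0.05), with sums of 933, 765 and 867 normalized counts in shNPTX1_3, shNPTX1_4 and shCTRL, most of it CD68. S100A8 was at 0 in every group and CD163 in both hairpin groups. In shCTRL CD163 averaged 0.114 normalized counts, the value of 1 read in 1 library. Of 8 endothelial markers, 7 were tested and 0 were called by DESeq2 (1 at an unadjusted p under 0.05), with sums of 437, 406 and 401 normalized counts in the same order. Of 8 fibroblast markers, all tested, COL3A1 and LUM were called higher in the authors' deposited table, and the sum was 6525 normalized counts in shNPTX1_3 and 3466 in shNPTX1_4, against 1742 in shCTRL. The sum in the knockdown groups is mostly COL3A1, and without that gene it was 1008 normalized counts in shNPTX1_3 and 1219 in shNPTX1_4, against 1011 in shCTRL. The other 6 markers were not called, and COL1A2, a further fibrillar collagen gene, averaged 17.8 normalized counts in shNPTX1_3 and 17.5 in shNPTX1_4, against 74.3 in shCTRL, in the authors' deposited table (log2 fold change -2.10, SE 0.87, adjusted p = 0.0559, DESeq2). Decorin (DCN) averaged 4.27, 3.37 and 2.41 normalized counts in shNPTX1_3, shNPTX1_4 and shCTRL in the authors' deposited table. COL3A1, like CD46, CD59 and CLU, was highest in shNPTX1_3 and lowest in shCTRL. The carcinoma markers KRT7, KRT8, KRT18, KRT19 and VIM also had this order, while EPCAM and CDH2 did not. Its share among all genes was not counted, so nothing is read from it. The fibroblast markers LUM, RGS5 and DCN had the same order, while COL1A1, COL1A2, PDGFRB and ACTA2 did not. The sum of the 7 markers without COL3A1 did not have it either. Most of that sum was COL1A1, which averaged 701 normalized counts in shNPTX1_3 and 1019 in shNPTX1_4, against 725 in shCTRL. The part of these markers in the results was not tested.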

How the data were processed

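RNA-seq libraries of 11 liver tumours were compared: 3 of shNPTX1_3, 4 of shNPTX1_4 and 4 of shCTRL. A Norgen kit gave the RNA and a TruSeq kit the libraries, per the labels. The submitters' processing notes name STAR 2.7.6a, featureCounts 2.0.0, MultiQC 1.9, DESeq2 1.24 and the builds hg19 and mm39. For the annotation, the strand setting and the handling of mouse reads, the sources used here give nothing. The members and all gene lists were chosen with earlier results of these data known, and the GPI anchor list was added after the members' values were seen. Some genes of these lists are not reported here and are in no count of the lists.

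Per the file headers, the deposited table holds group means, a signal that is never negative (read from the values as normalized counts averaged by the authors over a group's libraries), and DESeq2's log2 fold change with its SE, the Wald score, and the p-value and adjusted p. The deposited log2 fold change matched the log2 ratio of 7 knockdown to 4 control libraries within a median of 0.004 over 16366 genes with a mean of at least 10. Of 23434 rows, 107 were left out (79 unnamed, 26 named by a date, 2 repeated). A test on counts per library had been intended, but since the values are group means, the authors' comparison was used in its place. Other scalings, filters, thresholds, pseudocounts, lengths and windows were tried.

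CPM was computed from the table's mean total (2 CPM is 38.6 normalized counts). Hairpin ratios used a pseudocount of 1. Lengths and overlaps came from GENCODE 29 (GRCh38, names and lengths only), promoters from RefSeq. Python 3.11.15, pandas 2.3.3, SciPy 1.17.1 and Matplotlib 3.10.9 were used, and the adjustment was tested on simulated data. Besides all members, genes of a list were named if called at 2 CPM or more, up to 6 a list by size of change; other genes were named after their values were seen, for their role or to account for a count. Group means come without an error, so the spread between libraries is seen only in the SEs.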

Additional observations from a re-analysis of the deposited data

How the results depend on the processing

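The calls of CD46, CD55, CD59 and SERPING1 held in direction and significance under both other scalings, under both other sets of adjusted genes in which each was kept, and at an adjusted p under 0.01. SERPING1 is under 2 CPM and was not in the set limited to that level. The count of members called lower, 1 in the main comparison, was 2 under scaling of all groups to an equal total (a shift of 0.0661) and 2 with log2 fold changes centred on the median, the added gene being CFI. For the 32 further complement genes, 4 higher and 1 lower in the main comparison, 3 were lower under scaling of all groups to an equal total, 2 were lower with median centring, and 2 were higher at an adjusted p under 0.01. With a further requirement of a 1.5-fold change, chosen after seeing the data, 0 of them were lower, and CD46 among the members fell short of it. For the inducing signals, 6 higher and 0 lower, 1 was higher at an adjusted p under 0.01 and 1 was lower with total scaling (JAK2, adjusted p = 0.0234). For the acute-phase genes, 2 higher, 1 was higher among genes at 2 CPM or more, A2M being below that level. Over the whole table the share of called genes that were higher was 57.9%, and 41.4% with total scaling. The SERPING1 log2 ratios changed to -1.44 with shNPTX1_3 and -0.90 with shNPTX1_4 under a pseudocount of 10, and that of CD46 with shNPTX1_3 to 0.42 under total scaling. Leaving out single libraries and refitting a count model were not run. No paired analysis was possible because the deposited values are group means. C1R, C1S, C3 and SERPING1, all under 2 CPM, had SEs from 0.26 to 0.46, against a median of 0.125 at 2 CPM or more, and how much of this is depth was not tested.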

Other observations

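CD55 and CD59 are held on the cell surface by a glycosylphosphatidylinositol (GPI) anchor, while CD46 spans the membrane. The genes of GPI anchor synthesis, transfer and remodelling were therefore read as a list added after the values of the members were seen. Of 28 such genes with a row, all tested, 8 were called higher and 2 lower by DESeq2 in the authors' deposited table. That is 35.7%, beside 27.3% of all tested genes, and their median log2 fold change was 0.20, beside -0.01. Of the 28 genes, 27 averaged at least 2 CPM, while the 27.3% also covers genes below that level. These shares therefore cover unlike levels, and nothing is read from their difference. Among genes at 2 CPM or more, adjusted over those alone, 2869 of 14127 were called higher and 1974 lower. The median log2 fold change at that level was 0.02. DPM2, a regulatory subunit of the enzyme that supplies the anchor's mannose, rose by 0.63 (log2) in the authors' deposited table (adjusted p = 7.22e-06, DESeq2), averaging 286 normalized counts in shNPTX1_3 and 262 in shNPTX1_4, against 177 in shCTRL. PIGK, the catalytic subunit of the transamidase that attaches the anchor, rose by 0.50 (adjusted p = 3.37e-05, DESeq2) in the authors' deposited table. Of its partner subunits, PIGS and GPAA1 rose by 0.42 and 0.32 (DESeq2 adjusted p of 0.000189 and 0.0478), while PIGT and PIGU were not called, with log2 fold changes of 0.20 and -0.11 (DESeq2 adjusted p of 0.288 and 0.422), in the authors' deposited table. GPAA1 was close to the threshold, and no gene of this list was read under the other scalings. PIGF and PIGC, of earlier steps of the synthesis, rose by 0.47 and 0.35 by DESeq2 (adjusted p of 0.000893 and 8.95e-05) in the authors' deposited table. PGAP1, which removes an acyl chain from the finished anchor, fell by 0.71 (adjusted p = 1.52e-13, DESeq2), averaging 1675 and 1757 normalized counts in shNPTX1_3 and shNPTX1_4, against 2814 in shCTRL, in the authors' deposited table. The other gene called lower was PIGM, of the synthesis, which fell by 0.31 (adjusted p = 0.0233, DESeq2). It averaged 359.5 normalized counts in shNPTX1_3 and 336 in shNPTX1_4, against 426 in shCTRL, in the authors' deposited table. PIGA, which starts the anchor, was not called, averaging 639 normalized counts in shNPTX1_3 and 746 in shNPTX1_4, against 712 in shCTRL, in the authors' deposited table.

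Of 14 acute-phase genes other than complement, 8 were tested and 2 were called, both higher, in the authors' deposited table, which is 25%, beside 27.3% of all tested genes. CP, the gene of the copper carrier ceruloplasmin, averaged 1951 normalized counts in shNPTX1_3 and 839.6 in shNPTX1_4, against 409 in shCTRL, in the authors' deposited table (log2 fold change 1.69, SE 0.35, adjusted p = 3.68e-05, DESeq2). A2M, the gene of the protease trap alpha-2-macroglobulin, a relative of C3, had 44.2 normalized counts in shNPTX1_3 and 20.5 in shNPTX1_4, against 4.84 in shCTRL, in the authors' deposited table (log2 fold change 2.52, SE 0.45, adjusted p = 7.91e-07, DESeq2). SERPINA3, the most abundant of those not called, averaged 807 and 727 normalized counts in shNPTX1_3 and shNPTX1_4, against 639.9 in shCTRL, in the authors' deposited table (adjusted p = 0.121, DESeq2). The liver-made C-reactive protein gene CRP was at 0 in both hairpin groups and at 0.316 normalized counts in shCTRL, the value of 1 read in 1 library.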
